A study of Glycine max with 4 samples.

Results

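The outermost 1 Mb at both ends of each soybean chromosome was examined for sites bound by the protein of GLYMA.07G038400 in embryos. The assay was ChIP-seq, which sequences the DNA that an antibody pulls down together with the protein crosslinked to it. A shared site is a peak of replicate 1 that overlaps a peak of replicate 2 by at least 1 bp, and it was placed by the summit of its replicate 1 peak. Members were chosen by position alone, as the shared sites with a summit in the first or the last 1 Mb of the 20 sequences named as chromosomes. They numbered 1727 of 22252 shared sites (7.76%), in 4.22% of the summed chromosome length. The first 1 Mb, called the left end, held 826 of them, and the last 1 Mb, called the right end, held 901.

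The embryos came from cultivar Williams 82 at early maturation and were dissected from seeds measuring 6 to 7 mm. The 4 samples are 2 ChIP replicates, made with an antibody against a peptide of the protein, and an input (total chromatin, no antibody) for each. No genotype lacking the protein and no other stage is among them, and whole embryos were used, so signal from all embryonic cell types is mixed. DNA pulled down by cross-reaction of the antibody cannot be told apart from true binding.

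The letters GRF5 appear in the names of the peaks, with no explanation in the labels. In plants, growth-regulating factors (GRFs) are transcription factors with a DNA-binding WRC domain and a QLQ domain that contacts GIF co-activators, and many of them are held in check by the microRNA miR396. They are best known for promoting cell proliferation in young organs. The arms of soybean chromosomes are rich in genes and recombine often, whereas the wide regions around the centromeres are rich in repeats. The tips carry telomere repeats, and repeats next to them are often collapsed or missing in genome assemblies.

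No genome of the assembly used by the authors was at hand, so site sequences, motifs and nearby genes were not analysed here. Coordinates are 1-based positions on that assembly, which the labels and headers do not name. A chromosome was taken to end where the last peak of either replicate ended. The left end therefore began at position 1 and the right end at a peak, and this difference in definition bears on every comparison of left with right.

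Replicate 1 held 2400 peaks in the ends and replicate 2 held 2029. The depth was recovered from the deposited fold and p-value of each peak as the number of ChIP fragments over its summit. Members rested on a median of 41 fragments (interquartile range 30 to 60) in replicate 1 and of 28 (21 to 40) in replicate 2. The recovered background is the level that the peak caller set at a summit, not a direct count of input reads. At the same sites it had a median of 4.40 fragments in replicate 1 and 2.98 in replicate 2. Over all peaks the smallest pileup was 12 fragments in replicate 1 and 11 in replicate 2, so weaker sites were not detectable at this depth.

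Chromosome ends differed widely in how many sites they held, as did the zones 1 to 5 Mb from the same ends. Those zones held 4.5 to 76.75 shared sites per Mb (SD 15.5, n = 40). The 40 ends held between 8 and 67 shared sites, with a median of 44.5 and a mean of 43.2 ± 12.99 (SD, n = 40 ends). The richest was the right end of chromosome 7, with 67 shared sites among 92 peaks of replicate 1 and 77 of replicate 2. It was followed by the right ends of chromosomes 3 and 19, with 64 each, and by the right end of chromosome 14 and the left end of chromosome 17, with 62 each. These 5 ends had 80 to 92 peaks in replicate 1 and 70 to 77 in replicate 2. A shared site needs a peak in both replicates, so high counts in both follow from how the ends were picked. The right end of chromosome 13 had 86 peaks in replicate 1 and 55 in replicate 2, but 50 shared sites.

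The poorest was the left end of chromosome 13, with 8 shared sites, 8 peaks in replicate 1 and 9 in replicate 2. Next came the right end of chromosome 6 with 18 shared sites, which had 25 and 23 peaks, and the right end of chromosome 15 with 22, which had 37 and 27. The right ends of chromosomes 9 and 10 held 28 and 29 shared sites. Across the 40 ends, the peak numbers of the replicates had a Pearson's r of 0.94 and a Spearman's rho of 0.90, as a description of ends that share the same 2 libraries.

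**Figure D1:**
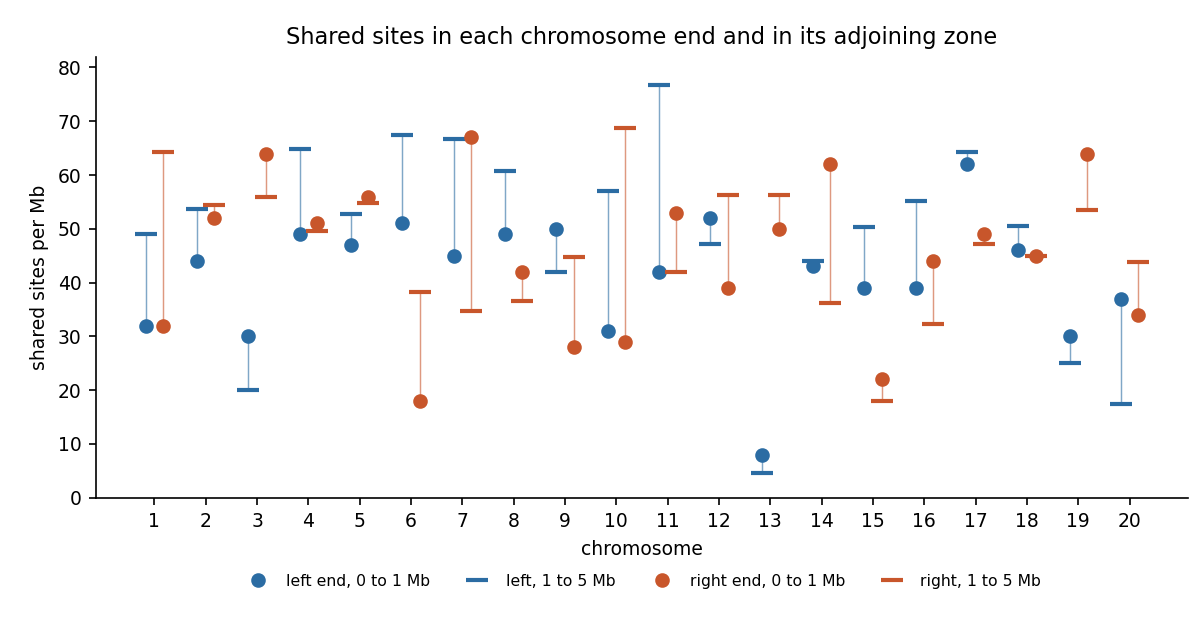
Shared sites per Mb (vertical axis) for each of the 20 chromosomes (horizontal axis), with the left end in blue and the right end in orange. Points show the outermost 1 Mb and short bars the zone 1 to 5 Mb from the same end, joined by a line. The left end of chromosome 13 is the lowest point, at 8 sites, and the right end of chromosome 7 the highest, at 67.

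The zone 1 to 5 Mb from the same end served as the comparison. Averaged over both ends of a chromosome, the outermost 1 Mb held 43.2 ± 8.65 shared sites per Mb and the adjoining zone 47.5 ± 9.63 (SD, n = 20 chromosomes). The ends were sparser on 15 of the 20 chromosomes. The difference of −4.38 ± 11.04 sites per Mb (SD, n = 20; 95% interval −9.54 to 0.79) did not pass a two-sided paired sign-flip permutation test over chromosomes with 100000 resamples (p = 0.0932, adjusted p = 0.16). Adjusted p-values are by the Benjamini-Hochberg method over the 12 comparisons made, of which 0 passed at an adjusted p of 0.05 and 3 had an unadjusted p under 0.05. Chromosomes served as units of these tests. They come from the same libraries and are not replicate samples.

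Single ends departed from their own adjoining zone in both directions. Of the 40 ends, 22 were sparser than the zone next to them and 17 were denser. By side, 14 left ends were sparser and 6 denser, whereas 8 right ends were sparser and 11 denser. The left and right ends are defined differently. The right end of chromosome 10 had the largest deficit, with 29 sites against 68.75 per Mb further in. The left end of chromosome 11 had 42 against 76.75, and the right end of chromosome 1 had 32 against 64.25. The right end of chromosome 7 had the largest excess, with 67 against 34.75, followed by the right end of chromosome 14 with 62 against 36.25. The left end of chromosome 13 was poor in both zones, with 8 sites in its outermost 1 Mb and 4.5 per Mb beyond. The number of sites in an end and the density next to it had a Pearson's r of 0.41 and a Spearman's rho of 0.24 over the 40 ends. Without the left end of chromosome 13 these were 0.26 and 0.18.

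The densities were lowest in the outermost 250 kb. In the first 250 kb from the end the density was 30.9 ± 18.1 shared sites per Mb (SD, n = 40 ends), from 250 to 500 kb 43.9 ± 21.1, from 500 to 750 kb 50 ± 20.01 and from 750 kb to 1 Mb 47.9 ± 22.6. From 250 kb to 1 Mb, the ends together held 47.3 sites per Mb, against 47.5 in the adjoining zone. The 250 kb steps were looked at after the data had been seen and were not tested. Per Mb, the density was 50.7 ± 14 (SD, n = 40 ends) between 1 and 2 Mb and 43.5 ± 21.1 between 4 and 5 Mb.

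A narrower end of 500 kb, which was listed among the alternatives, did pass the test. It held 748 shared sites, at 33.7 per Mb on the left and 41.1 per Mb on the right. Over both sides this was 37.4 ± 8.59 per Mb (SD, n = 20 chromosomes), 10.2 per Mb fewer than the adjoining zone. The difference of −10.2 ± 9.49 (SD, n = 20; 95% interval −14.6 to −5.71) was negative on 18 of 20 chromosomes (sign-flip permutation test, p = 5e-05, adjusted p = 0.0006 over the 12 comparisons at that width). When the left ends were counted from their first peak, a setting added after the data had been seen, the difference was −7.15 ± 9.67 (SD, n = 20) and negative on 17 of 20 (permutation p = 0.00243, adjusted p = 0.0292). With ends of 2 Mb against 2 to 5 Mb the sign turned, to 0.396 sites per Mb (sign-flip permutation test, adjusted p = 0.938). Gene content and read alignability along the ends were not analysed here.

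**Figure D2:**
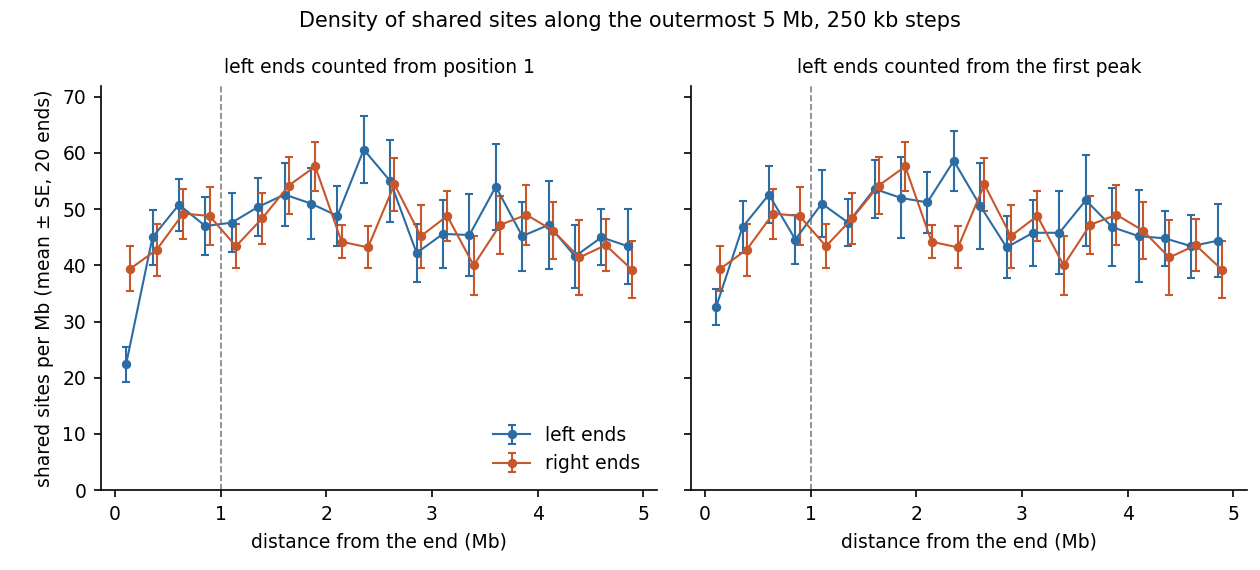
Density of shared sites (mean ± SE over 20 ends, sites per Mb) in 250 kb steps against the distance from the chromosome end in Mb, for left (blue) and right (orange) ends; the dashed line marks 1 Mb. With left ends counted from position 1 the outermost step holds 22.4 sites per Mb on the left and 39.4 on the right, and counted from the first peak the left value is 32.6.

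The 2 ends of a chromosome held nearly equal numbers of sites on some chromosomes and very different ones on others. Right ends held 45.05 ± 14.4 and left ends 41.3 ± 11.5 shared sites per Mb (SD, n = 20), with more sites on the right in 10 chromosomes, on the left in 9 and the same number in 1. The difference of 3.75 ± 19.5 (SD, n = 20; 95% interval −5.36 to 12.9) did not pass the test (permutation p = 0.406, adjusted p = 0.469). On 4 chromosomes 1 end held at least 2 times the sites of the other. Chromosome 13 had 8 on the left and 50 on the right, chromosome 6 had 51 on the left and 18 on the right, and chromosomes 3 and 19 each had 30 on the left and 64 on the right. The adjoining zones of these chromosomes differed in the same direction. Their left and right densities per Mb were 4.5 and 56.25 on chromosome 13 and 67.5 and 38.25 on chromosome 6. On chromosomes 3 and 19 they were 20 and 56, and 25 and 53.5. Counted from the first peak, left ends held 44.15 sites per Mb and the difference shrank to 0.9 (permutation test, adjusted p = 0.924).

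Left and right ends differed most at the tip. In the outermost 250 kb, left ends held 22.4 ± 13.9 shared sites per Mb and right ends 39.4 ± 18.04 (SD, n = 20). From 250 kb to 1 Mb the values were 47.6 on the left and 46.9 on the right. The outermost shared site lay 13.9 to 226 kb from position 1 at left ends, with a median of 51.6 kb, and beyond 100 kb at 8 of the 20. At right ends the median distance was 0.31 kb, because a peak defines the end there. This contrast follows from the definitions and is not a result. With left ends counted from the first peak, their outermost 250 kb held 32.6 ± 14.3 sites per Mb (SD, n = 20), between the left and right values above.

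The last peak of a chromosome was present in both replicates on 11 of the 20 chromosomes, and on the same number the 2 peak lists ended within 1 kb of each other. On the other 9 it was found in 1 replicate only, and on chromosome 19 the lists ended 188 kb apart. On chromosomes 8, 11, 16 and 18 the lists ended within 10 bp of each other. At the left, the first shared site of chromosome 16 lay at 13757 to 13994, that of chromosome 7 at 14008 to 14611, that of chromosome 6 at 16512 to 16953 and that of chromosome 17 at 16953 to 17511. Enrichment there was 2.36-fold in replicate 1 and 5.44-fold in replicate 2 on chromosome 16, and 16.5-fold and 9.22-fold on chromosome 7. Folds are the authors' values of ChIP over the background of the peak caller.

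**Figure D3:**
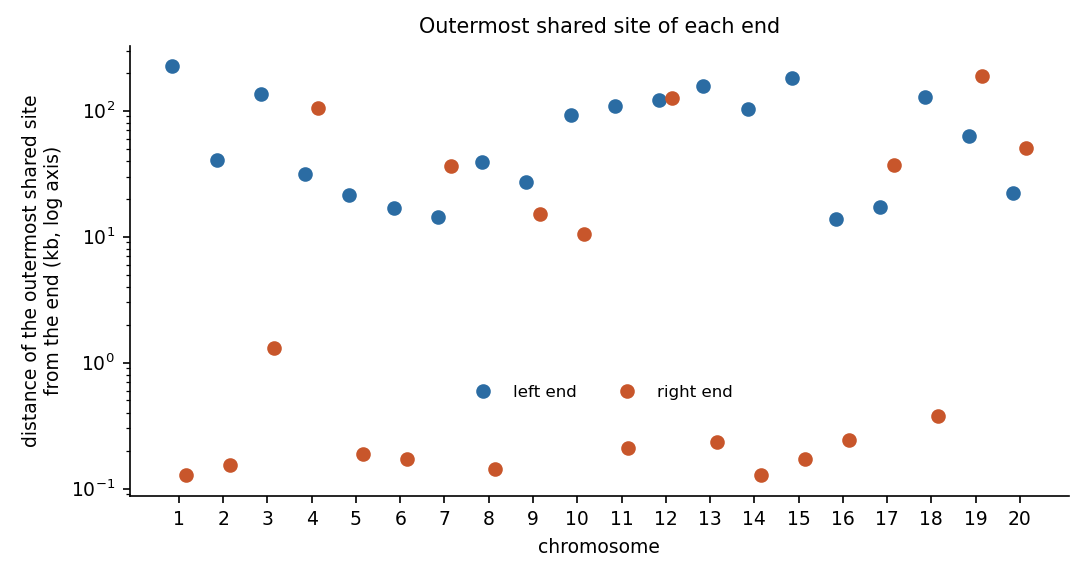
Distance of the outermost shared site from the chromosome end in kb (vertical log axis) for each chromosome, left ends in blue and right ends in orange. Left ends range from 13.9 to 226 kb, whereas 11 right ends have a shared site within 1 kb, since the right end is set by the last peak.

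Sites at the very tip ranged from weak to strong. Within 20 kb of an end there were 24 shared sites, 4 on the left and 20 on the right, with a median lower-of-2 fold (the smaller of the folds of the 2 replicates) of 5.70. The 11 within 1 kb of a right end had a median of 4.73 and ranged from 3.01 on chromosome 8 to 28.6 on chromosome 18. A peak sets each right end, so the counts by side and the distances from right ends follow from that definition. How far the sequence extends beyond the last peak was not known. The right tip of chromosome 18, so defined, stood apart. It carried 4 shared sites in its last 10.1 kb, at 57964726 to 57974815. The outermost was the peak that set this end, with its summit 378 bp inside. It had a fold of 28.6 in replicate 1 and 43.6 in replicate 2. These rested on 204 fragments (95% exact Poisson interval 177 to 234) and 143 (121 to 168). The innermost of the 4 reached 35.2 and 33.0. The pair between them had folds of 22.0 and 21.04, and of 11.95 and 7.23. These 4 were singled out after their values were seen.

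The strength of the members was close to that of the adjoining sites. Their median lower-of-2 fold was 6.19 (interquartile range 4.75 to 8.84), and that of the 7608 sites 1 to 5 Mb from an end was 6.30 (4.77 to 9.45). Per chromosome, the median log2 lower fold was 2.62 ± 0.10 in the ends and 2.66 ± 0.05 in the adjoining zone (SD, n = 20). The difference of −0.04 ± 0.09 (SD, n = 20), a ratio of 0.972 (95% interval 0.942 to 1.00), had the same sign on 13 of 20 chromosomes and did not pass the test (permutation p = 0.0647, adjusted p = 0.155). With the folds of replicate 1 the difference was −0.07 ± 0.12 (permutation p = 0.0222, adjusted p = 0.133), and with those of replicate 2 it was −0.04 ± 0.09 (permutation p = 0.0775, adjusted p = 0.155). When all replicate 2 peaks were used in place of shared sites, the difference was −0.05 and passed (permutation test, adjusted p = 0.0402). Background at the members was 4.31 ± 0.13 fragments in replicate 1, against 4.37 ± 0.06 in the adjoining zone (adjusted p = 0.155), and 3.03 ± 0.06 against 3.02 ± 0.04 in replicate 2 (SD, n = 20 chromosomes; adjusted p = 0.469, permutation tests).

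Strongly enriched members were a minority. A fold of at least 10 in both replicates was reached by 337 members (19.5%, 95% Wilson interval 17.7 to 21.4), against 22.7% (21.7 to 23.6) in the adjoining zone and a background of 22.5% over all shared sites. A fold of at least 20 was reached by 64 (3.71%, 2.91 to 4.70), where the background is 4.07%. These intervals cover counting error only, and the shares were not tested. Left ends had a median lower fold of 6.24 and right ends of 6.08, and per chromosome the right minus left difference of the log2 medians was −0.04 ± 0.24 (SD, n = 20; permutation p = 0.43, adjusted p = 0.469). Single ends ranged in their median from 4.56 at the right of chromosome 10 to 7.46 at the right of chromosome 18. Over the 40 ends the number of sites and their median fold had a Pearson's r of 0.48 and a Spearman's rho of 0.42, both being taken from the same peaks.

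**Figure D4:**
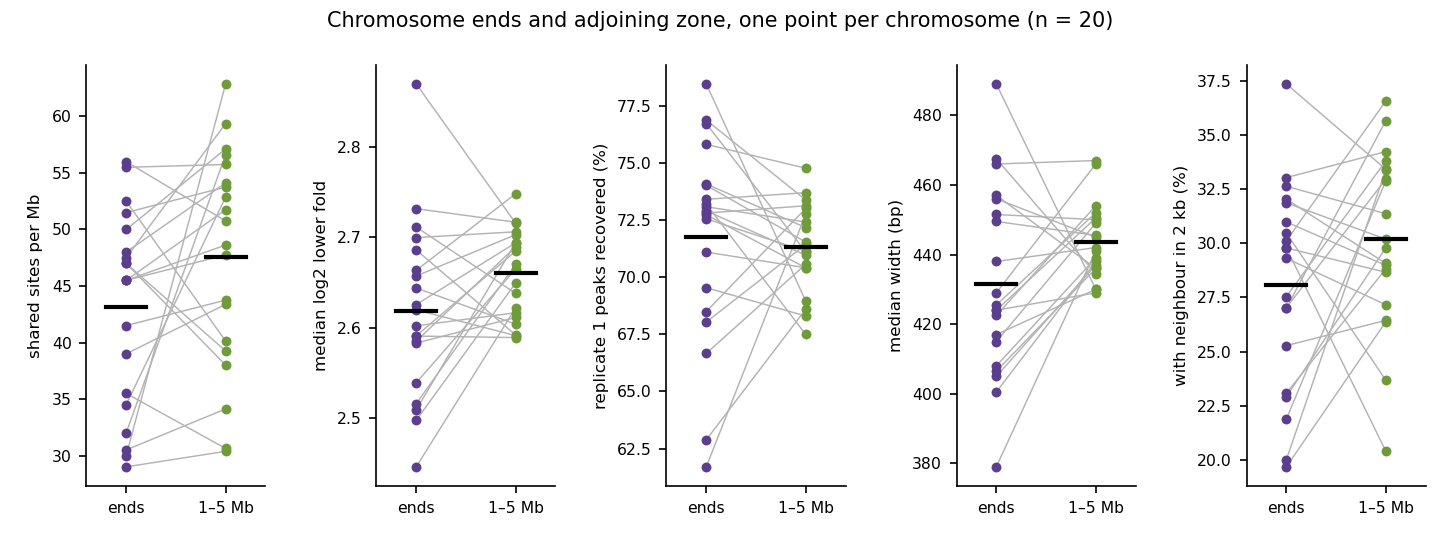
Ends and adjoining zone (1 to 5 Mb) for each chromosome, joined by grey lines, with black bars at the means over 20 chromosomes. From left to right: shared sites per Mb, median log2 lower-of-2 fold, share of replicate 1 peaks recovered in replicate 2 in percent, median width in bp, and share of sites with a neighbour within 2 kb in percent. In every panel the chromosomes overlap broadly, and the mean densities are 43.2 and 47.5 sites per Mb.

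The 20 strongest members lay on 11 chromosomes, 5 in left and 15 in right ends, where all members numbered 826 and 901. The sides were closer at a lower fold of at least 20, reached by 29 left-end members (3.51%) and 35 right-end members (3.88%). The mean folds of the 20 strongest were 28.8 to 49.9, and the summits of the replicates lay at most 44 bp apart. First by the lower fold was a site on chromosome 8 at 46804844 to 46805514, 943 kb from the right end. It had a fold of 45.0 in replicate 1 and 51.4 in replicate 2 (48.2 ± 4.50, SD, n = 2), with 242 fragments (95% exact Poisson interval 212 to 274) and 187 (161 to 216). It ranked 20th among the shared sites of all chromosomes. Members made up 8 of the 100 strongest shared sites and 66 of the 1000 strongest, and 7.76% of all shared sites.

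Chromosome 18 carried the second, at 998862 to 1000324 in its left end. Both replicates were nearly equal, at 45.4-fold and 44.4-fold (44.9 ± 0.72, SD, n = 2), on 324 and 242 fragments. This site was also the nearest to the border, 999 kb from the end, and the nearest shared site on the other side of the border, on chromosome 3 at 44750553 to 44751051, had folds of 15.3 and 8.46. The next was a site on chromosome 8 at 47596273 to 47597101, 152 kb from the right end, with folds of 44.7 and 43.6 on 220 and 175 fragments.

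Chromosome 7 held 5 of the 20, of which 4 were in its right end, also the end with most sites. The strongest of them, at 43808126 to 43808802, had folds of 39.0 and 42.9, and the one at 43660818 to 43661623 had 31.9 and 32.1. At 44353535 to 44354628 the folds were 31.1 and 48.6, and at 43899239 to 43900436 they were 29.4 and 34.7. All 4 were higher in replicate 2. In the left end of the chromosome the site at 391280 to 392149 had folds of 37.6 and 39.1.

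Among the others, the site on chromosome 16 at 638045 to 639275 had folds of 39.8 and 38.3. A site on chromosome 17 at 40785827 to 40787024 had 36.0 and 39.8. The one on chromosome 5 at 41865808 to 41867497 was the widest of the 20, at 1690 bp, and the least alike between replicates, with 64.4-fold and 35.4-fold (49.9 ± 20.5, SD, n = 2). Its pileups were 264 fragments (95% exact Poisson interval 233 to 298) and 193 (167 to 222), over backgrounds of 3.11 and 4.48. The pair on chromosome 3 at 45360217 to 45360953 and at 45282966 to 45283827 had 32.3 and 39.1, and 26.9 and 31.5. At 6 of the 20 sites, replicate 1 gave the higher fold. The SD between replicates averaged 3.88, so most neighbouring ranks cannot be told apart. The outermost 250 kb held 4 of the 20, and 309 of all 1727 members.

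**Figure D5:**
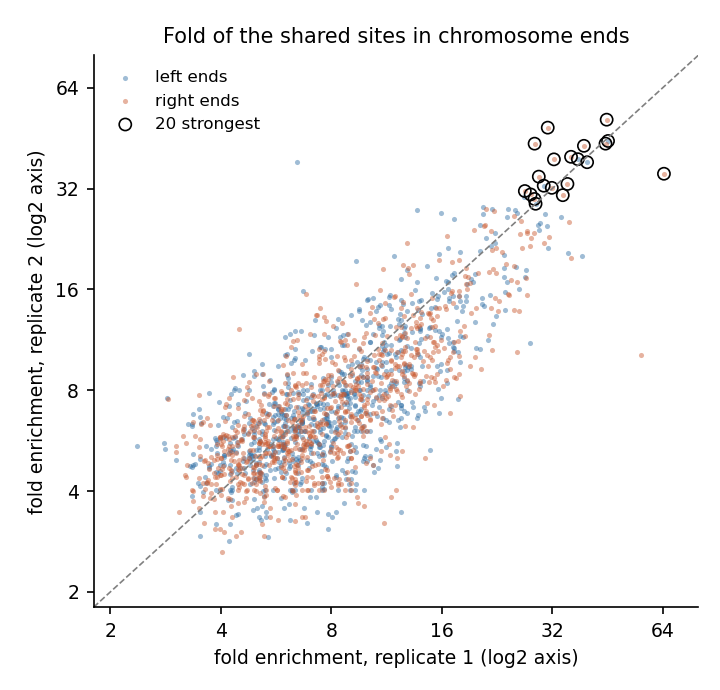
Fold enrichment of the 1727 members in replicate 1 (horizontal) and replicate 2 (vertical), both on log2 axes, with left ends in blue, right ends in orange and the 20 strongest circled; the dashed line marks equal folds. Most points lie near the line, and 1 right-end site far below it has folds of 55.9 and 10.2.

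Fold enrichment was similar in the replicates across members. The folds had a Spearman's rho of 0.72 and their log2 values a Pearson's r of 0.77 over 1727 sites, which share the 2 libraries. In the adjoining zone these were 0.74 and 0.79. The folds of 95.3% of the members lay within 2-fold of each other, and the median distance between summits was 32 bp, against 94.9% and 31 bp in the adjoining zone. Replicate 1 gave the higher fold for 62.4% of the members and for 61.6% of the adjoining sites.

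A member on chromosome 7 at 44132028 to 44133685, 470 kb from the right end, differed far more. In replicate 1 it had 55.9-fold enrichment on 399 fragments (95% exact Poisson interval 361 to 440), the highest pileup of any replicate 1 peak. In replicate 2 it overlapped 2 peaks, of 5.94-fold and 10.2-fold, on 22 and 43 fragments. Its ratio of 5.49 was the largest among the 1647 shared sites of all chromosomes with a replicate 1 fold of at least 20, where the next was 3.31 and the median 1.24. The site was singled out after its values were seen, and with 1 value per replicate the difference has no test. The member with the largest difference in the other direction, on chromosome 16 at 637441 to 637763 with 6.45-fold and 38.3-fold, shares its replicate 2 peak with the strong site next to it.

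For replicate 1 peaks, recovery in the other replicate was close to that elsewhere. Of the 2400 replicate 1 peaks in the ends, the 1727 members (72%, 95% Wilson interval 70.1 to 73.7) overlapped a replicate 2 peak, where the background over all chromosomes is 72%. Per chromosome the share was 71.7% ± 4.40 in the ends and 71.3% ± 1.93 in the adjoining zone (SD, n = 20; difference 0.44, 95% interval −1.68 to 2.56, permutation p = 0.673, adjusted p = 0.673). Stronger peaks were recovered more often. The share was 40.2% (34.4 to 46.2) for the 264 peaks under 4-fold, 50.1% from 4-fold to 6-fold, 82.7% from 6-fold to 8-fold and 98.1% from 8-fold to 10-fold. Over all chromosomes the shares in these ranges were similar, at 35.6%, 50.7%, 82.1% and 96.5%. All 542 peaks of at least 10-fold in the ends were recovered, where the background over all chromosomes is 7530 of 7540 (99.87%). Among replicate 1 peaks in the ends without a counterpart, the strongest was one of 9.66-fold on 43 fragments, at 419272 to 419809 of chromosome 4.

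For replicate 2 peaks, the share recovered in replicate 1 was below that of the adjoining zone by a difference that did not pass after adjustment. Of the 2029 replicate 2 peaks there, 1777 (87.6%, 86.1 to 88.9) overlapped a replicate 1 peak, where the background is 89.8%. Per chromosome it was 87.5% ± 3.63 in the ends and 90.0% ± 1.95 in the adjoining zone, a difference of −2.47 ± 4.02 percentage points (SD, n = 20; 95% interval −4.35 to −0.59). The ends were lower on 15 of 20 chromosomes, with a permutation p of 0.0128 and an adjusted p of 0.133. Chromosome 12 had the largest deficit, with 80.3% against 91.1%. Its right end held 11 replicate 2 peaks with recovered backgrounds of 103 to 189 fragments, none of which overlapped a replicate 1 peak. With all peaks of a recovered background over 20 fragments left out, the difference over the 20 chromosomes was −2.15 and did not pass either (permutation test, adjusted p = 0.128). The difference was −3.35 with a reciprocal overlap of 50% (permutation test, adjusted p = 0.0416) and −3.23 with summits within 100 bp (adjusted p = 0.0366), and passed under both. All 412 replicate 2 peaks of at least 10-fold in the ends were recovered, where the background over all chromosomes is 5978 of 5980 (99.97%).

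The width of the members differed little from that of adjoining sites. The median width of their replicate 1 peaks was 431 bp, against 444 bp in the adjoining zone. Per chromosome the difference was −12.1 ± 28.5 bp (SD, n = 20; 95% interval −25.4 to 1.31, permutation p = 0.0745, adjusted p = 0.155). With all replicate 2 peaks it was −11.2 bp and passed (permutation p = 0.00203, adjusted p = 0.0142 over fewer than the 12 comparisons). With all replicate 1 peaks it was −5.58 bp and did not pass (permutation test, adjusted p = 0.344). Broad peaks of 800 bp or more made up 145 members (8.4%, 95% Wilson interval 7.18 to 9.80), with 7.66% in the adjoining zone and a background of 6.98%. A replicate 1 peak in the ends overlapped at least 2 replicate 2 peaks in 52 of 2400 cases (2.17%, 1.66 to 2.83), against 1.76% in the adjoining zone.

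Another shared site within 2 kb was present for 493 members (28.5%, 95% Wilson interval 26.5 to 30.7), where the background is 30%. Per chromosome the share was 28.1% ± 4.72 in the ends and 30.2% ± 4.11 in the adjoining zone (SD, n = 20; difference −2.10, 95% interval −4.96 to 0.75, permutation p = 0.14, adjusted p = 0.209). Runs of at least 3 shared sites spaced by up to 2 kb numbered 46 in the ends, or 11.5 per 10 Mb, against 13 in the adjoining zone. The longest in the ends held 5 sites. One lay on chromosome 4 at 543903 to 551058, with lower folds of 6.59 to 13.7, and the other on chromosome 14 at 48813445 to 48818434, with 3.35 to 7.80. A run of 3 on chromosome 6 at 870927 to 873863 had lower folds of 14.4 to 24.9.

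Within the ends, sites were unevenly spread. In windows of 100 kb the median was 4 sites in the ends and in the adjoining zone, and 33 of 400 end windows (8.25%) were empty, against 8.56% of 1600. At least 10 sites were present in 26 end windows (6.50%) and in 9.19% of the others. The densest held 14 sites, 600 to 700 kb from the left end of chromosome 16 and 500 to 600 kb from the left end of chromosome 20. The longest stretch of an end without a shared site had a median of 127 kb over the 40 ends. It reached 298 kb on the right of chromosome 6, from 314 to 612 kb from the end, and 262 kb on the left of chromosome 13. At 7 left ends and 3 right ends this stretch began at the end itself.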

How the data were processed

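The submitters' processing notes name Bowtie 0.12.7, a read aligner, and MACS2, a peak caller. Settings, assembly and MACS2 version are not given there. The authors deposited 1 peak list per ChIP replicate, without read totals, and inputs enter only through peak calling. Per the narrowPeak column order of these deposited lists, each peak has a fold (linear ratio of ChIP to local background), a −log10 p-value, a −log10 q-value, a score and a summit position. In 99.997% and 99.96% of peaks the deposited score was 10 times the −log10 q, cut to a whole number.

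ChIP fragments and background per summit were solved from the deposited fold and p-value, as (fragments + 1)/(background + 1) and an upper Poisson tail. The fit deviated by at most 0.581% of a step. These pileups are not read totals, and without molecular identifiers intervals cover counting error only. Wilson and exact Poisson intervals are at 95%, and intervals of mean differences over 20 chromosomes use Student's distribution. Peaks on unplaced scaffolds (182 and 152) were left out. A member's replicate 2 value is that of the overlapping peak with the nearest summit, and 4 members share one.

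Groups and replicate numbers come from the titles. The series' design text calls them biological replicates without naming plants, so the spread between them may be technical. Named sites are the 20 members with the highest lower fold, the outermost shared site of an end where within 20 kb, the 5 richest and 5 poorest ends, and the sites nearest the border. Other sites named (discordant members, runs, unrecovered peaks, dense windows and further sites at the tips) were chosen after their values were seen. Members and rules were chosen with earlier results of these data known. The methods were tested on simulated data. Python 3.11.15, numpy 2.4.6, scipy 1.17.1, pandas 2.3.3 and matplotlib 3.10.9 were used.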

Additional observations from a re-analysis of the deposited data

Results flagged for a closer look

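The comparisons of shared sites leave out 252 replicate 2 peaks in the ends that had no replicate 1 counterpart, which drew attention as signal outside the sites compared. They were 121 in left and 131 in right ends, with a median fold of 4.62. The strongest, on chromosome 4 at 814252 to 814518, had a fold of 8.57 on 32 fragments.

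A recovered background over 20 fragments was found for 106 of 25502 replicate 2 peaks and 5 of 31090 replicate 1 peaks on all sequences. In the ends it was found for 13 of 2029 and 0 of 2400. All 13 were among the peaks without a counterpart, and 11 of them lay together in the right end of chromosome 12, at 39184641 to 39194240. That cluster drew attention for the same reason. Its folds were 1.51 to 2.09 over backgrounds of 103 to 189 fragments, and none of the 13 overlapped a replicate 1 peak. This end had 60 peaks in replicate 2 and 56 in replicate 1. Without the 13 peaks, 88.1% (95% Wilson interval 86.7 to 89.5) of the replicate 2 peaks in the ends were recovered, against 87.6% with them.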

How the results depend on the processing

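The 12 comparisons were repeated under 12 listed settings and 1 added after the data had been seen, which gave 146 values. Of these, 130 kept their direction and their side of the threshold, and 7 passed where the main comparison did not. Those 7 were the density with ends of 500 kb (−10.2 sites per Mb, and −7.15 with left ends counted from the first peak), the log2 fold of replicate 1 (−0.0869) and the replicate 2 recovery (−3.35 percentage points) with a reciprocal overlap of 50%, that recovery with summits within 100 bp (−3.23), and, without replicate 1, the log2 strength and the width. Over both single replicates the strength difference was −0.0476 to −0.0314 and the width difference −11.2 to −5.58 bp. Without replicate 2, neither passed. A total of 9 values turned sign, none of them past the threshold before or after. With ends of 2 Mb these were the density (0.396 sites per Mb), the right minus left log2 strength (0.00284) and the neighbour share (0.765 percentage points). The replicate 1 recovery turned to −0.308 with a reciprocal overlap of 50%, to −0.213 with summits within 100 bp and to −1.30 percentage points with a −log10 q of at least 10. That last setting also turned the right minus left density (−0.2 sites per Mb) and log2 strength (0.0525), and the replicate 1 background (0.00147 fragments). The cause of these changes was not tested. With 1 replicate alone, recovery, the folds taken per replicate and the other replicate's background have no value of their own. The adjusted p-values of those settings therefore cover fewer than 12 comparisons. No paired analysis was possible because, of the samples that share a replicate number, only the ChIP samples have peak lists; the tests over chromosomes pair zones, not samples.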
